A study of Mus musculus with 6 samples.

Results

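The cells described here were B-lineage cells of mouse bone marrow that carried transcripts of Fcer2a or Fcmr, genes of B cells that are leaving or have left the progenitor stages. They were chosen by a rule on UMIs (unique molecular identifiers, 1 per captured transcript). A cell needed at least 1 UMI of Cd79a, at least 2 UMIs of Fcer2a and Fcmr together, fewer than 10 of Jchain and none of Siglech. The rule selected 1701 of 26915 cells that passed the filter on cells. They were 467 of 9509 cells in 12-week wild-type mice, 292 of 7850 in 100-week wild-type mice and 942 of 9556 in 12-week mice of genotype nfkbie-/-nfkbib-/-nfkbia+/-, called IkB-deficient here. The working name of these cells was immature-mature B-like. The immunoglobulin chains described below went against that name in the IkB-deficient library, so they are called Fcer2a/Fcmr-positive cells.

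All mice were C57BL/6. Each group was 1 gene-expression library and 1 V(D)J library, both made from the pooled marrow of 2 mice, so no group had a replicate. Sorted cells were B220+, lacked surface IgM and IgD, and lacked the myeloid markers F4/80, CD11b and Gr-1, the T cell markers CD8a and CD3e, and CD49b. The gate was therefore set to leave out B cells with surface IgM or IgD, and it named no other receptor class. By label the IkB-deficient mice lacked both copies of Nfkbie and Nfkbib and 1 copy of Nfkbia. The labels name no Cre, so they do not limit the loss to B cells. V(D)J libraries hold the assembled transcripts (contigs) of immunoglobulin genes, joined to each cell by its barcode.

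Fcer2a (chromosome 8, 3680280 to 3694174 in mm10, RefSeq positions on GRCm38.p6) encodes CD23, the low-affinity receptor for IgE. Fcmr (chromosome 1, 130865777 to 130880790) encodes the Fc receptor for IgM. Developing B cells first assemble the heavy chain gene and carry it with the surrogate light chain, made of Igll1 and Vpreb proteins, as the pre-B cell receptor. They then assemble a kappa or lambda light chain gene, put IgM on the surface, and turn on CD23, MHC class II and homing receptors as they become transitional and follicular B cells. NF-kB is a family of transcription factors held in the cytoplasm by IkB proteins. It is released by signals that act in B cell maturation and survival, among them those of the BAFF receptor and CD40.

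The rule had been expected to select cells almost only in the IkB-deficient library. It did not. The rule cells were 4.91% of the kept cells in the 12-week wild-type library (95% exact Clopper-Pearson interval 4.49% to 5.37%), 3.72% in the 100-week library (3.31% to 4.16%) and 9.86% in the IkB-deficient library (9.27% to 10.5%). When each cell was thinned to 2000 UMIs, the shares were 2.26%, 2.03% and 4.21%. Both wild-type shares stayed below the IkB-deficient one, whose thinned interval was 3.81% to 4.64%. The thinned intervals of the 12-week and 100-week wild-type libraries, 1.96% to 2.58% and 1.72% to 2.39%, overlapped, so the order of these libraries was not resolved after thinning. These and all other intervals cover counting error only. They do not cover the spread between mice, which was not measured, and genotype, sex of the pool and library cannot be told apart.

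The libraries differed more in which of the 2 genes was found than in the share of cells. Fcer2a UMIs were present in 11 of the 467 rule cells of the 12-week wild-type library (2.36%), in 42 of 292 in the 100-week library (14.4%) and in 214 of 942 in the IkB-deficient library (22.7%). The other 456, 250 and 728 rule cells were selected by Fcmr UMIs only. Fcer2a without Fcmr was found in 1, 1 and 80 cells. Fcer2a/Fcmr-positive cells of young wild-type marrow were thus almost all Fcmr-positive cells, and the Fcer2a-positive cells were mostly IkB-deficient.

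**Figure D1:**
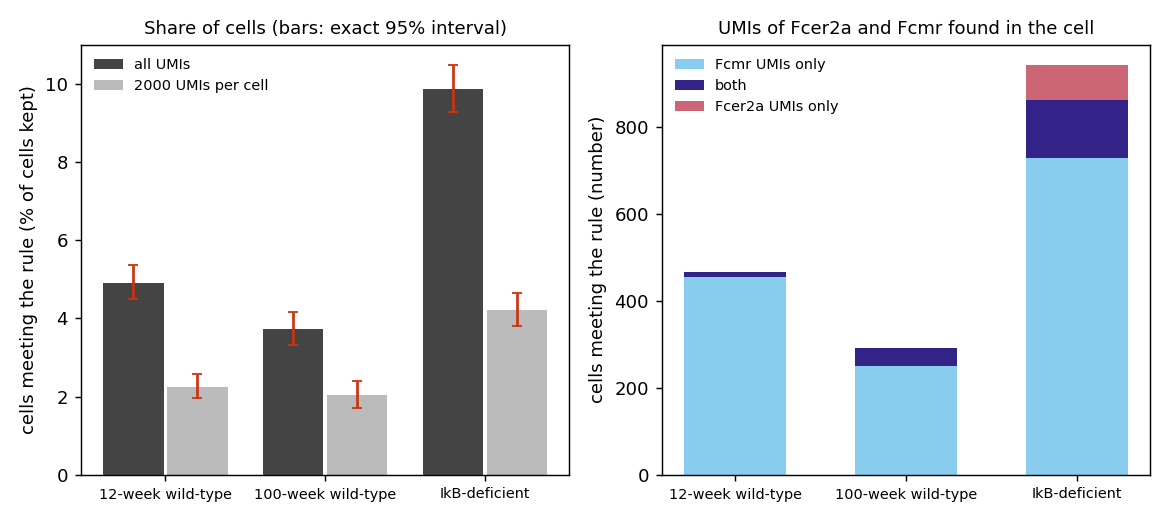
Share of kept cells that met the rule in each library, with all UMIs and after thinning to 2000 UMIs per cell (left, % with exact 95% intervals), and the number of these cells by which of Fcer2a and Fcmr had UMIs (right). The IkB-deficient share of 9.86% lay above the wild-type shares of 4.91% and 3.72%, and 214 of its 942 cells held Fcer2a.

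Most members lay close to the threshold. They held exactly 2 UMIs of the 2 genes in 343 cells of the 12-week wild-type library, 170 of the 100-week library and 451 of the IkB-deficient library. They held 5 or more in 28, 51 and 171 cells, and the highest value in a cell was 12, 24 and 30 UMIs. Just outside the rule, 1301, 682 and 1086 cells with Cd79a held 1 UMI. In Siglech-positive, Cd79a-negative cells of the same libraries, which should lack both genes, 0.260%, 0.183% and 0.291% reached 2 UMIs at median depths of 6689, 7654 and 6528 UMIs. The shares of rule cells lay above those levels in each library.

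The members were shallower than the other cells with Cd79a of their libraries, which numbered 8581, 6667 and 6837. Their median was 3226 against 3840 UMIs in the 12-week wild-type, 3462 against 4117 in the 100-week and 4504 against 6927 in the IkB-deficient library. Their summed UMIs, on which the levels below rest, were 1932626, 1428992 and 5702517. Libraries shared 85 to 108 cell barcodes in pairs, and at most 1 barcode of a pair belonged to a member in both.

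A doublet score marked 12.4%, 8.22% and 9.13% of the members in the order 12-week wild-type, 100-week wild-type and IkB-deficient. It marked 7.57%, 6.85% and 9.04% of the other Cd79a-positive cells. The 100-week pool held mice of both sexes, and there 22 of the 196 members with a sex-linked UMI carried Xist together with Y-linked transcripts (11.2%, 7.17% to 16.5%), against 2.99% of the other cells (2.51% to 3.53%). The 12-week wild-type members carried Y-linked transcripts only and the IkB-deficient members Xist, apart from 1 cell, so the same count could not be made there. Without those 22 cells and their like among the others, 3.51% of the 100-week cells met the rule and 89.3% of the members held a heavy chain, against 89.7% with them. Doublets of cells of the same sex cannot be found this way, and 96 of the 292 members had no sex-linked UMI.

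The V(D)J libraries, which the rule did not use, separated the IkB-deficient members from both sets of wild-type members. A productive heavy chain, a rearranged gene with an open reading frame, was found in 442 of 467 members of the 12-week wild-type library (94.6%, 92.2% to 96.5%). It was found in 262 of 292 members of the 100-week library (89.7%) and in 259 of 942 IkB-deficient members (27.5%, 24.7% to 30.5%). In each library the members held a heavy chain more often than the other Cd79a-positive cells, where the shares were 79.1%, 59.6% and 12.3%. The Siglech-positive, Cd79a-negative cells gave a background of 3.64%, 2.01% and 0.436%.

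Light chains followed the same order of members over other cells. A productive kappa or lambda chain was present in 40.7% of the 12-week wild-type members, 62.3% of the 100-week members and 22.7% of the IkB-deficient members. The other Cd79a-positive cells stood at 19.9%, 17.1% and 8.22%, and the background cells at 1.04%, 1.46% and 0.436%. Both chains together, which a B cell receptor needs, were found in 37.9%, 58.2% and 4.67% of the members.

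In the IkB-deficient library, 513 of 942 members (54.5%, 51.2% to 57.7%) had neither a productive heavy nor a productive light chain. A further 215 had a heavy chain only, 170 a light chain only and 44 both. At least 1 immunoglobulin contig of any kind was found in 941 of the 942 members. Contigs with no V gene assigned held IGHM in 92.0% of them, IGKC in 72.4%, IGLC (lambda constant genes) in 42.8% and IGHG2B in 10.7%. The other Cd79a-positive cells of the IkB-deficient library held such IGHM contigs in 95.25%, such IGKC contigs in 79.0% and such IGLC contigs in 18.2%. Such IGHM contigs were also found in 63.4% of the 12-week wild-type members, and whether they are germline or incompletely assembled transcripts was not tested. The IGHG2B contigs were found in 9.87% of the other Cd79a-positive cells of the IkB-deficient library and in 4.45% of the 100-week members. They were found in 0 of 467 members of the 12-week wild-type library, which allows a share of up to 0.642% (3 counts of the total).

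Fcer2a-positive members showed the same contrast. Of the Fcer2a-positive members, 10 of 11 in the 12-week wild-type library and 39 of 42 in the 100-week library (92.9%) held both chains. In the IkB-deficient library 11 of 214 did (5.14%, 2.59% to 9.01%). A heavy chain was present in 34.6% of those 214 cells and in 25.4% of the 728 with Fcmr only. Their intervals, 28.2% to 41.4% and 22.3% to 28.7%, overlapped narrowly, and the difference was not tested. Most Fcer2a-positive IkB-deficient cells thus had no productive heavy and light chain pair among their contigs.

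**Figure D2:**
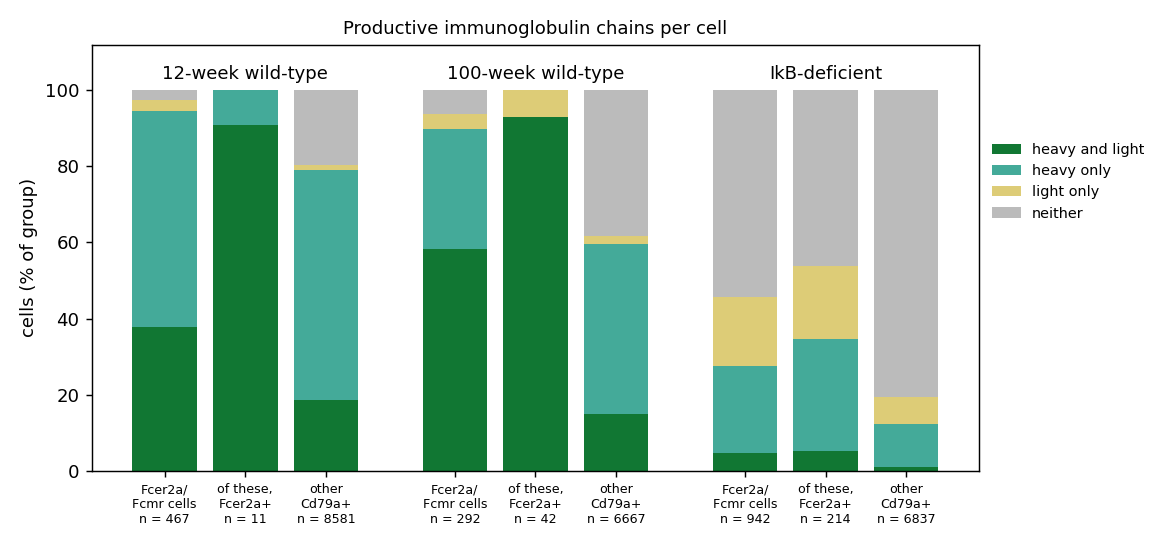
Share of cells (% of each group) with productive heavy and light chains, a heavy chain only, a light chain only or neither, for Fcer2a/Fcmr-positive cells, for those of them with Fcer2a, and for the other Cd79a-positive cells of each library. In wild-type libraries nearly all members held a heavy chain, while 54.5% of the IkB-deficient members held neither chain.

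The CDR3, the stretch across the junction of V and J segments (with a D segment between them in heavy chains), is shown for paired chains of 1 cell per library with the conserved first and last codons in capitals. Each cell was the paired member with the most heavy-chain contig UMIs of its library, 60, 236 and 69, tied with another cell in the 12-week library.

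12-week wild-type, IGHV9-3 with IGHJ1: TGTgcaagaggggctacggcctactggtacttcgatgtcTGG

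12-week wild-type, IGKV2-137 with IGKJ2: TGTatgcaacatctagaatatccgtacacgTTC

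100-week wild-type, IGHV1-53 with IGHJ4: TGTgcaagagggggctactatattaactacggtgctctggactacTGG

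100-week wild-type, IGKV4-55 with IGKJ5: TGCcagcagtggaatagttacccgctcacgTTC

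IkB-deficient, IGHV2-2 with IGHJ3: TGTgccagaaatctggggTGG

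IkB-deficient, IGKV1-110 with IGKJ1: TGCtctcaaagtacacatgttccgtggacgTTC

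The heavy chain CDR3s of these cells were 42, 48 and 21 nucleotides long, and the kappa CDR3s were 33 nucleotides each. The heavy chains used IGHV1 segments, the largest V family, in 56.8% of the 12-week wild-type members with a heavy chain, 51.5% of the 100-week members and 32.4% of the IkB-deficient members. The other cells stood at 57.1%, 51.3% and 31.9%. Members therefore used IGHV1 at the level of their own library and did not stand apart within it.

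Members of a clone, that is cells with the same heavy chain V gene, J gene and CDR3, were rare except in the 100-week library. The 442 heavy chains of 12-week wild-type members fell into 440 clones and the 259 of IkB-deficient members into 258. The 2 IkB-deficient members that shared a heavy chain used IGHV1-34 with IGHJ2 and the short CDR3 TGTgcaagatgggtctacTGG of 21 nucleotides. In the 100-week library, the 262 heavy-chain members formed 250 clones, and the largest held 12 cells by the heavy chain of most UMIs in each cell.

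When any productive heavy chain of a cell was counted, that clone held 17 members. Its chains are shown because the clone held most of the IGHG2C heavy chains of the 100-week members.

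100-week clone, IGHV1-64 with IGHJ1: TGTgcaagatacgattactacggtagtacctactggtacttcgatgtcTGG

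100-week clone, IGKV6-15 with IGKJ2: TGTcctctcacgTTC

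The heavy CDR3 was 51 nucleotides long. The kappa CDR3, at 15 nucleotides, was found in all 17 cells, and in 30 members and 22 other cells of that library in all. The heavy chain of 15 of the 17 cells was joined to IGHG2C, an IgG constant region, and of 2 to IGHM. Fcer2a was present in 10 of the 17, Igll1 in 2, and the doublet score marked 1. Sex-linked transcripts were Xist alone in 16 and both kinds in 1. Zbtb32, a repressor found in memory and B-1 cells, stood at 116 CPM (the usual scaling to depth, here over the UMIs of genes outside the immunoglobulin and T cell receptor loci) and Tbx21, the factor T-bet, at 67.7 CPM, from 12 and 7 UMIs.

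Class-switched heavy chains were found in the members of the 100-week library. All 442 heavy-chain members of the 12-week wild-type library and all 259 of the IkB-deficient library were joined to IGHM, the constant region of IgM. Of the 262 in the 100-week library, 228 were IGHM (87.0%, 82.3% to 90.8%), 18 IGHG2C, 11 IGHA, 3 IGHG1 and 2 IGHG2B. The other Cd79a-positive cells of the 3 libraries were IGHM in at least 99.3%. Without the 17 clone cells, the 100-week members had Ighg2c at 56.1 CPM instead of 81.1, Fcer2a at 49.9 instead of 73.3 and Cd74 at 7115 instead of 8357. Their share with a light chain was 60.0% instead of 62.3%.

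Lambda light chains were found with Fcer2a in the IkB-deficient cells. A productive lambda chain was present in 9.35% of the 214 Fcer2a-positive members (5.80% to 14.1%), in 2.06% of the 728 with Fcmr only (1.16% to 3.38%) and in 0.60% of the other Cd79a-positive cells. Of the 35 lambda members, 16 held the same lambda CDR3, and 3 of these 16 also had a heavy chain. The sequence is shown since it was also the most frequent lambda CDR3 of the 12-week wild-type members.

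IGLV1 with IGLJ1, shared: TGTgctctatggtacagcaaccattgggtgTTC

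It was present in 11 members of the 12-week wild-type library, 10 of them with a heavy chain, and in 4 of the 100-week library, 3 with a heavy chain. It was also found in 44, 31 and 11 other cells of the 12-week wild-type, 100-week and IkB-deficient libraries. As background, mouse lambda chains are built from few V and J segments.

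A second productive heavy chain, which allelic exclusion normally prevents, was found in 14.5% of the 12-week wild-type members with a heavy chain, 20.2% of the 100-week members and 3.09% of the IkB-deficient members. The other cells stood at 5.36%, 4.43% and 1.43%. Doublet marks were also more frequent in members than in other cells of both wild-type libraries. At 100 weeks, 11.2% of the members with a sex-linked UMI carried both Xist and Y-linked transcripts, against 2.99% of the other cells. The part of doublets in the shares of second heavy chains was not tested.

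The surrogate light chain gene Igll1, a gene of pro-B and large pre-B cells, was present in 70.8% of the IkB-deficient members. It was present in 10.9% of the 12-week wild-type and 22.6% of the 100-week members. Thinned to 2000 UMIs, the shares were 66.9%, 7.54% and 16.9%. In the Siglech-positive, Cd79a-negative cells the thinned shares were 4.24%, 1.83% and 0.735% in cells that should lack the gene. The other Cd79a-positive cells held Igll1 in 88.9% in the IkB-deficient, 33.8% in the 12-week wild-type and 57.8% in the 100-week library.

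Depth and doublet marks moved with Igll1. The members with Igll1 had median UMIs of 5649 against 3218 without it in the IkB-deficient library, and the doublet score marked 12.4% of the first and 1.09% of the second. The 51 members with Igll1 of the 12-week wild-type library had a median of 6973 UMIs, and 35.3% of them were marked. In the 100-week library, 30.3% of the 66 members with Igll1 were marked, and 13 of 49 with a sex-linked UMI carried both kinds (26.5%). The part of doublets in the Igll1 shares was not tested. In the IkB-deficient library, 584 of the 667 members with Igll1 were not marked. The number of marks was set beforehand by the number of cells, so an unmarked cell was not shown to be a single cell.

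The IkB-deficient members split by Igll1 into cells of different chain status. The 275 members without Igll1 held a heavy chain in 47.3%, both chains in 11.6% and neither in 31.6%. The 667 with Igll1 held a heavy chain in 19.3%, both chains in 1.80% and neither in 63.9%. Levels of the maturity genes followed the same split. Cd74, the invariant chain that guides MHC class II, stood at 17900 CPM without Igll1 and 5485 with it, and the class II chain gene H2-Aa at 4684 and 1216. Fcer2a stood at 632 and 97.5 CPM, and Iglc2, a lambda constant gene, at 888 and 34.6. Dntt, the enzyme that adds bases at heavy chain junctions in pro-B cells, went the other way, with 135 CPM without Igll1 and 636 with it, as did Ebi3, a cytokine subunit gene, with 73.6 and 363 CPM.

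The genes of the members were then set beside those of the other Cd79a-positive cells in the same library. The rule had read these same cells, so the values are given as a description. A gene counted as measured at a mean of at least 20 CPM, and as called at a log2 ratio past 2-fold with 5 CPM added to both sides. In the IkB-deficient library, 84 of 5913 measured genes were at least 2-fold higher in the members (1.42%) and 85 were at least 2-fold lower (1.44%). When the other cells were weighted to the members' UMIs per cell, 38 genes were higher and 10 lower, and 36 of those 38 were among the 84. Calls of higher genes made up 49.7% of all calls before the weighting and 79.2% after it.

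In the 12-week wild-type library, 69 of 5983 genes were higher (1.15%) and 202 lower (3.38%). In the 100-week library, 181 of 5947 were higher (3.04%) and 180 lower (3.03%). Of 5375 genes measured in all 3 libraries, 20 were higher in the members of each. They included Ms4a1, Cd74, H2-DMb2, Bank1, Pim2, Ly6d, Ikzf3, Socs1 and Neurl3. Over those 5375 genes the higher lists held 53 genes in the IkB-deficient, 45 in the 12-week and 110 in the 100-week library. The 21 shared by the IkB-deficient and 12-week lists were 39.6% of the first and 46.7% of the second, and the 36 shared with the 100-week list were 67.9% of the IkB-deficient list and 32.7% of the other. The lists come from separate libraries, and the rule selected the cells of each in the same way.

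Ms4a1, which encodes CD20, a surface protein from the pre-B stage onward, was the gene with the highest ratio in the IkB-deficient members, at 178 CPM against 14.4 (12.4-fold, 11.3 to 13.6). It stood at 211 against 28.3 CPM in the 12-week wild-type and 278 against 12.0 in the 100-week library. The IkB-deficient log2 ratio of Ms4a1 was 3.24 at the main settings. It was 2.56 with the other cells weighted to the members' UMIs per cell, and 2.62 against other cells without Mki67 and Top2a. Members were above other cells in each library, and the 3 member levels lay within a narrow range.

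The list of activated B cell genes had 5 of 7 measured members above 0 and 2 past 2-fold in the IkB-deficient library (median 0.71). Of 5 measured at 12 weeks in wild type, 4 lay above 0 and 1 was past 2-fold lower (median 0.23), and of 6 at 100 weeks 5 lay above 0 and 1 past 2-fold (median 0.43). Single genes high in the order of ratios follow. Fscn1, an actin-bundling protein, was at 438 CPM in the members against 78.6 in the other cells (5.57-fold, 5.30 to 5.85). Its levels in wild-type members were 0.527 CPM at 12 weeks and 29.9 CPM at 100 weeks. Aire, the regulator known from thymic epithelium, was at 54.7 against 7.13 CPM (7.67-fold) and at 0.527 and 0.712 CPM in the wild-type members. Il4i1, a secreted amino acid oxidase, was at 167 against 30.8 CPM (5.43-fold), and Ccr7, a homing receptor for lymph node chemokines, at 173 against 43.3 (3.71- to 4.30-fold). With the other cells weighted to the members' UMIs per cell, log2 ratios moved from 2.40 to 1.98 for Fscn1 and from 2.30 to 1.88 for Aire. Ccr7 moved from 1.88 to 1.36. Against other cells without Mki67 and Top2a, the values of Fscn1, Aire and Ccr7 were 1.67, 1.67 and 1.40. Fas, the death receptor, was at 46.4 against 8.93 CPM, Pim2, a survival kinase, at 284 against 73.0, and Gadd45g at 329 against 87.4.

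Dendritic cells also carry Fscn1, Ccr7 and class II genes, so their markers were read in the same members. The 10 markers of conventional dendritic cells summed to 31.5 CPM in the IkB-deficient members against 55.9 in the other cells. Flt3, which B progenitors share, made up 26.2 of the 31.5 CPM, and Xcr1, Clec9a, Itgax and Ccl17 were at 0. Zbtb46 stood at 2.83 CPM. The sums for 12-week and 100-week wild-type members were 5.80 and 14.2 CPM. The 10 markers of plasmacytoid dendritic cells, without Siglech, summed to 281 CPM in the IkB-deficient members, most of it Tcf4 (147 CPM), against 616 in the other cells. Markers of monocytes and macrophages summed to 10.5, 17.8 and 10.1 CPM in the 12-week wild-type, 100-week and IkB-deficient members, those of neutrophils to at most 2.11, those of erythroid cells to at most 55.2 and those of NK cells to at most 102. The 10 T cell markers summed to 343, 238 and 56.4 CPM in the 12-week wild-type, 100-week and IkB-deficient members. In the other cells they summed to 152, 89.4 and 57.1 CPM. Cd3e and Cd8a, whose proteins the sort was set against, and Cd28 were at 0 in the members of all 3 libraries. Cd2, which B-lineage cells also carry, was at 339, 206 and 22.3 CPM in the 12-week wild-type, 100-week and IkB-deficient members.

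**Figure D3:**
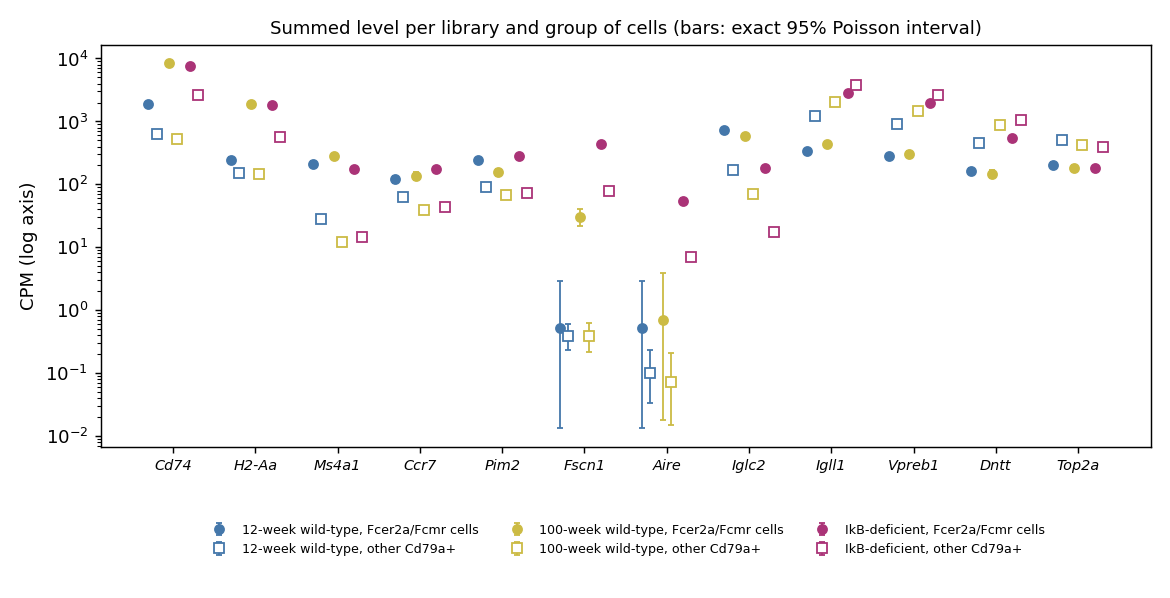
Level (CPM, log axis) of 12 genes in Fcer2a/Fcmr-positive cells (filled circles) and other Cd79a-positive cells (open squares) of each library, with exact 95% Poisson intervals of the summed counts. Ms4a1 and Cd74 were higher in members of all 3 libraries, Fscn1 and Aire reached 438 and 54.7 CPM in the IkB-deficient members, and Igll1 was lower in members of all 3.

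The MHC class II presentation genes, which load peptides for CD4 T cells, were higher together. Of 12 measured in the IkB-deficient library, 10 lay above 0 and 8 past 2-fold, with 1 past 2-fold lower. Their median log2 ratio was 1.26 against -0.00 for all measured genes. In the 100-week library, 13 of 13 were past 2-fold and the median was 2.38. In the 12-week wild-type library, 2 of 10 were past 2-fold higher and the median was 0.71, where the median of all genes was 0.08.

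Cd74 was at 7632 CPM in the IkB-deficient members against 2673 in the other cells (2.86-fold), at 8357 against 523 in the 100-week and at 1879 against 628 in the 12-week wild-type library. H2-Aa was at 1815 against 574 CPM in the IkB-deficient (3.16-fold), 1872 against 144 in the 100-week and 249 against 150 in the 12-week wild-type library. The member levels of the IkB-deficient and 100-week libraries lay close together, and the 12-week wild-type members were lower. The other cells of the IkB-deficient library also lay above those of both wild-type libraries, and its ratios were smaller than those of the 100-week library. The IkB-deficient log2 ratios of Cd74 and H2-Aa, 1.51 and 1.65, moved with the choice of other cells. They were 1.765 and 2.04 against other cells without Siglech and Jchain, and 1.09 and 1.305 against those without Mki67 and Top2a. With the other cells weighted to the members' UMIs per cell they were 1.21 and 1.38.

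Class II levels were higher in the Fcer2a-positive members than in those with Fcmr only. Cd74 stood at 13700 CPM in the 11 Fcer2a-positive members of the 12-week wild-type library and at 1497 in those with Fcmr only. The values were 18150 and 6257 in the 100-week and 16290 and 5240 in the IkB-deficient library. H2-Aa stood at 2457 and 177, 4308 and 1350, and 4300 and 1129 CPM in the same order. Within Fcer2a-positive cells the 3 libraries thus differed less in Cd74 than their members as a whole.

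The markers of follicular B cells, the mature recirculating type, were higher in the members apart from the 2 genes of the rule. In the IkB-deficient library, 7 of 7 measured lay above 0 and 3 past 2-fold (median 0.97). At 12 weeks in wild type 5 of 6 lay above 0 and 3 past 2-fold (median 1.14), and in the 100-week library 5 of 6 lay above 0 and 5 past 2-fold (median 1.83). Klf2, a factor of resting lymphocytes, was at 281 against 150 CPM in the IkB-deficient library. Cr2, the complement receptor of mature B cells, was at 1.24, 0.527 and 2.13 CPM in IkB-deficient, 12-week and 100-week members, from 7 UMIs in the first. Cr2 was thus near 0 in members of each library while the other follicular genes named here were measured.

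The markers of immature and transitional cells were near the median of all genes. Their median log2 ratio was 0.04 in the IkB-deficient, 0.31 in the 12-week wild-type and -0.00 in the 100-week library, over 8 measured genes each. Cd93, a receptor of progenitors and transitional B cells, was at 107 against 125 CPM in the IkB-deficient library.

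Lambda constant genes were higher in the members in all 3 libraries. Iglc2 was at 182 against 17.5 CPM in the IkB-deficient library (10.4-fold), 721 against 170 in the 12-week wild-type and 591 against 70.9 in the 100-week library. Iglc1 was at 252 against 31.5 CPM in the IkB-deficient library. Ighd, whose transcript appears with maturity, was at 31.5 against 16.2, 58.5 against 30.1 and 42.0 against 23.8 CPM in the IkB-deficient, 12-week and 100-week libraries, and Ighm at 1936 against 1274 in the first. Both heavy chain genes were thus modestly higher in members, although the sort was set against surface IgM and IgD.

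**Figure D4:**
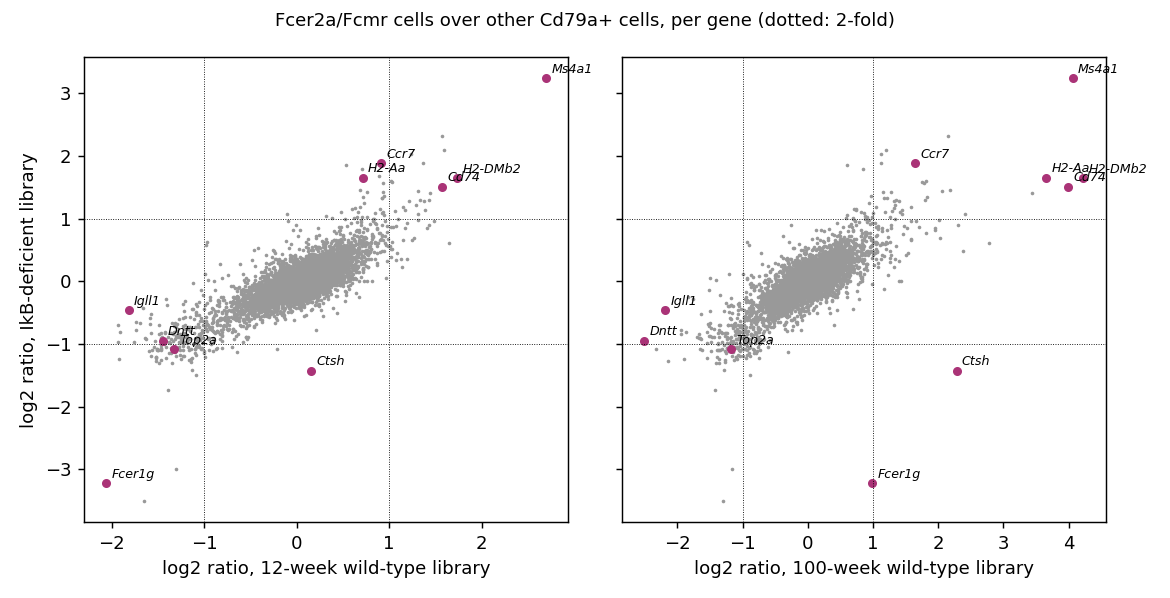
Log2 ratio of each measured gene in Fcer2a/Fcmr-positive cells over the other Cd79a-positive cells, IkB-deficient library (vertical) against the 12-week (left) and 100-week (right) wild-type libraries, 1 point per gene, for 5375 genes. Ms4a1, Cd74 and H2-DMb2 lay past 2-fold in each library, and Ctsh and Fcer1g lay apart, lower in the IkB-deficient members and higher in the 100-week members.

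Most genes of NF-kB signalling lay above 0 in the members of every library, with fewest past 2-fold in the IkB-deficient one. Of the 18 NF-kB target genes measured in the IkB-deficient library, 15 lay above 0 and 2 past 2-fold (median 0.59). Of all 5913 measured genes, 2937 lay above 0 and 1.42% past 2-fold. Over all genes at 12 weeks in wild type, 3529 of 5983 lay above 0 and 1.15% past 2-fold. At 100 weeks, 3025 of 5947 lay above 0 and 3.04% past 2-fold, so the libraries differed in this share too. At 12 weeks in wild type, 13 of 15 targets lay above 0 and 3 past 2-fold (median 0.61), and at 100 weeks 15 of 16 and 7 (median 0.54). The 9 measured genes of BAFF, CD40 and TRAF signalling all lay above 0 in each library, with medians of 0.61, 0.80 and 0.72 in the order IkB-deficient, 12-week and 100-week, and 0, 2 and 3 of them lay past 2-fold. Tnfrsf13c, the BAFF receptor, was at 200 against 104 CPM in the IkB-deficient members and Nfkb2, the p100 precursor, at 249 against 136. The difference between libraries in these medians was not tested.

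The targeted genes checked the label. Nfkbie was at 3.89 CPM in the IkB-deficient members, 152 in the 12-week wild-type and 121 in the 100-week members. Nfkbib was at 26.2, 68.0 and 75.4 CPM and Nfkbia, with 1 copy left, at 401, 761 and 696. Counts per gene do not tell whether the remaining Nfkbib and Nfkbie UMIs came from a functional transcript.

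Genes of division were lower in the members. All 19 measured G2 and M phase genes lay below 0 in the IkB-deficient library and 16 past 2-fold (median -1.08). All 20 lay below 0 in both wild-type libraries (medians -1.31 and -1.05). The S phase genes had medians of -0.83, -1.22 and -1.02. With the other cells weighted to the members' UMIs per cell, the IkB-deficient medians were -0.66 for G2 and M and -0.46 for S phase, and 10 genes of any kind were at least 2-fold lower. Top2a, which untangles DNA in division, was at 186 against 400 CPM in the IkB-deficient library. After thinning, 12.3% of the IkB-deficient members held a Mki67 or Top2a UMI (10.3% to 14.6%) against 29.8% of the other cells. The wild-type members stood at 11.3% and 11%, against 27.7% and 28%. The intervals of the 3 member shares overlapped.

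The genes with the lowest ratios in the IkB-deficient members were not genes of division. Cd7 was at 0.531 CPM against 58.0, from 3 UMIs, Fcer1g at 1.24 against 53.1, Tyrobp at 9.20 against 109 and Bst2 at 81.6 against 283. The rule removed cells with Siglech from the members and not from the other cells. When cells with Siglech or Jchain were also removed from the others, the log2 ratios moved from -3.51 to -1.06 for Cd7, from -3.22 to -1.30 for Fcer1g, from -3.0 to -0.45 for Tyrobp and from -1.74 to -0.21 for Bst2. Cd7 and Fcer1g stayed past 2-fold, and 95 genes of any kind were at least 2-fold lower.

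The pro-B markers had different medians in the 3 libraries, a difference that was not tested. In the IkB-deficient members 6 of 11 lay above 0 and 5 below, none past 2-fold, with a median of 0.03. That median depended on the settings. It stayed at 0.03 with 1 CPM added in place of 5. With the other cells weighted to the members' UMIs per cell it was -0.12, and at a mean CPM of at least 100 it was -0.25. Against other cells without Mki67 and Top2a it was -0.35, and with 3 and 5 UMIs required -0.10 and -0.64. The 12 genes of the list summed to 6808 CPM in those members and 8983 in the other cells. In the 12-week wild-type members 7 of 9 lay below 0 (median -0.94), and in the 100-week members 7 of 9 (median -1.83). The surrogate light chain and pre-B receptor genes had medians of -0.43, -1.42 and -1.66. Igll1 was at 2785 against 3847 CPM in the IkB-deficient library, 337 against 1201 in the 12-week and 441 against 2034 in the 100-week wild-type library. Dntt was at 549 against 1065, 165 against 459 and 148 against 867 CPM. The ratio of Dntt was 1.94-fold lower in the IkB-deficient and 5.86-fold lower in the 100-week members. Kit, the stem cell factor receptor of pro-B cells, was at 27.8 CPM in the IkB-deficient members and at 1.58 and 4.98 in the wild-type members.

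**Figure D5:**
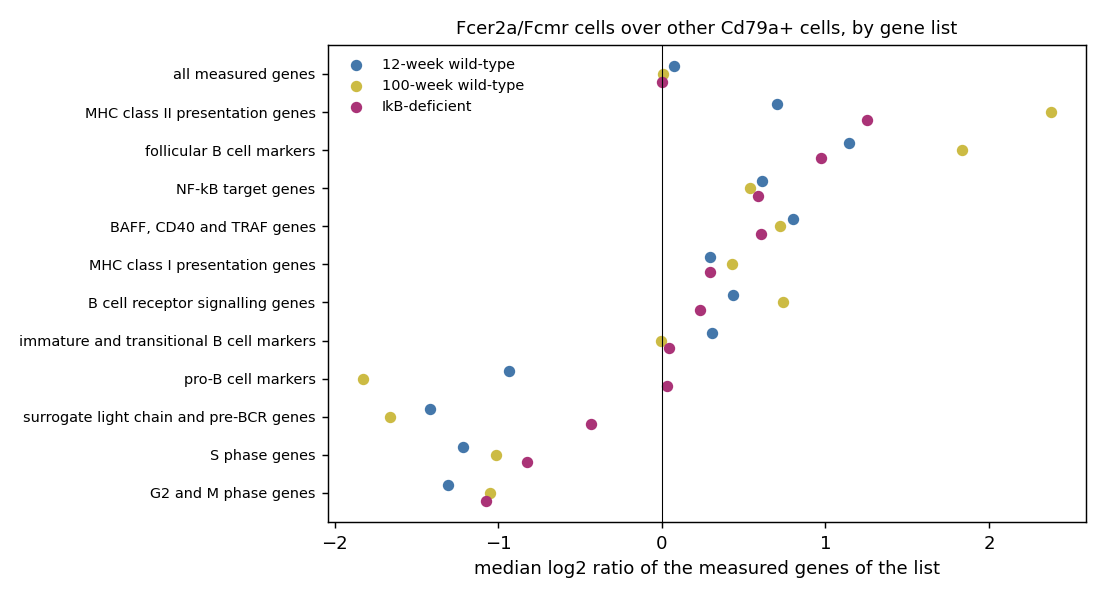
Median log2 ratio (members over other Cd79a-positive cells) of the measured genes of 11 lists and of all measured genes, 1 point per library. MHC class II, follicular, NF-kB target and BAFF, CD40 and TRAF genes lay above 0 in each library and division genes below 0. At the main settings, pro-B markers were near 0 in the IkB-deficient library only, at 0.03 against -0.94 and -1.83.

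Within the IkB-deficient members, the V(D)J state gave a division that the rule had not used. The 259 members with a heavy chain were set beside the 683 without one. Of 5878 measured genes, 69 were at least 2-fold higher with a heavy chain (1.17%) and 100 at least 2-fold lower (1.7%). In the pro-B list, 11 of 11 genes lay below 0 in cells with a heavy chain and 7 past 2-fold (median -1.08, all genes -0.04). Erg, a factor of early progenitors, was at 31.4 CPM with and 136 without a heavy chain, Igll1 at 1590 and 3293, and Dntt at 219 and 690.

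Iglc2 was at 420 CPM with a heavy chain and 80.9 without, and Il4i1 at 368 and 81.4. The S phase genes were higher with a heavy chain, 15 of 15 above 0 and 6 past 2-fold (median 0.92), while the thinned shares of cells with Mki67 or Top2a were 14.3% (10.2% to 19.2%) and 11.6% (9.27% to 14.3%), which overlapped. The class II list had a median log2 ratio of 0.24, and Cd74 was at 9061 CPM with and 7024 without a heavy chain. The class II level of members without a heavy chain therefore stayed well above the 2673 CPM of the other Cd79a-positive cells. Ighg2b was at 31.4 and 232 CPM, lower in the cells with a heavy chain.

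Across the 4 chain states of the IkB-deficient members, Ms4a1 stood at 396 CPM in cells with both chains, 249 with a heavy chain only, 199 with a light chain only and 125 with neither. Igll1 stood at 1179, 1646, 2870 and 3404 CPM in the same order. Ms4a1 and Igll1 ran in opposite orders, and neighbouring states did not overlap in their Poisson intervals, except heavy only and light only for Ms4a1, at 225 to 276 and 169 to 231. These intervals cover the counting of summed UMIs and not the spread between cells, and only 44 cells held both chains. Fscn1 did not follow Ms4a1: it stood at 296, 255, 574 and 497 CPM, lower in the states with a heavy chain.

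The IkB-deficient members were also set beside wild-type cells with a paired receptor transcript, the 1602 other Cd79a-positive cells of the 12-week wild-type library with both chains. Of 5950 genes, 289 were at least 2-fold higher in the IkB-deficient members (4.86%) and 234 lower (3.93%). Only 44 of the 942 IkB-deficient members held both chains, so the chain state differed between these groups. Xist, at 565 against 0.154 CPM, and Eif2s3y, at 0 against 177, differed with the sex-linked transcripts of the 2 pools. MHC class II genes were higher (10 of 11 above 0, 8 past 2-fold, median 2.52), as were the pro-B markers (5 of 9 past 2-fold, median 2.33). Fscn1 was at 438 against 1.85 CPM, Ebi3 at 313 against 1.39 and Il9r at 222 against 0.154. Nfkbie was at 3.89 against 184 CPM. Jchain, which the rule limited in the members only, was at 0.885 against 1057 CPM.

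Set beside the 467 members of the 12-week wild-type library, 283 of 5991 genes were at least 2-fold higher in the IkB-deficient members (4.72%) and 268 lower (4.47%). The pro-B list had a median of 1.71, MHC class II genes 2.04 (8 of 12 past 2-fold) and NF-kB target genes 1.09 (10 of 17 past 2-fold). MHC class I genes were higher in 14 of 15 (median 0.87). The immature and transitional markers lay below 0 in 8 of 8 (median -0.91). Cd74 was 4.06-fold higher (3.93 to 4.2) and H2-Aa 7.30-fold higher (6.66 to 8.02) in the IkB-deficient members. Both comparisons used the same IkB-deficient cells. They set 1 library against another, with genotype, sex of the pool and library confounded.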

How the data were processed

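Gene expression (10x 5' chemistry) and V(D)J transcripts were read from sorted marrow of 3 groups, with 1 library of each kind per group. The deposited matrices hold counts (raw UMIs per gene and called cell), and the deposited contig tables hold counts of UMIs per contig. The submitters' processing notes name Cell Ranger and mm10. Its release is not given in the sources used here; per the file headers of the matrices, the software version was 3.0.1. The 12-week wild-type, 100-week wild-type and IkB-deficient libraries held 54698092, 50701225 and 78266890 UMIs.

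A cell was kept at 500 UMIs and 300 genes or more and a mitochondrial share of 10% or less. UMIs were summed per group of cells and scaled to CPM. Log2 ratios had 5 CPM added; folds have exact conditional binomial, shares exact Clopper-Pearson and levels exact Poisson intervals, at 95%. The 5 genes of the rule were left out of gene counts and lists. With 1 library per group, no test was made. Scrublet (scanpy 1.11.5) scored doublets, which were kept. Its automatic threshold marked 1, 251 and 415 cells and did not work in the first library, so 0.8% per 1000 cells was marked, and removed as an alternative. The steps were tested on simulated data.

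Genes were named by rule: the 15 highest and lowest in the IkB-deficient library, 5 in other comparisons, the genes of the rule, the targeted genes, immunoglobulin constant genes and the 4 most abundant of each of 34 lists. Other genes named, among them those shared by the 3 libraries, were picked with their values in view. The members and lists were chosen with earlier results of these data known, and the comparisons within wild-type libraries and between the members of 2 libraries were added later.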

Additional observations from a re-analysis of the deposited data

Results flagged for a closer look

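Ctsh, a lysosomal protease, had log2 ratios of members over other Cd79a-positive cells of opposite sign in 2 libraries: -1.43 in the IkB-deficient and 2.28 in the 100-week wild-type library, a difference of -3.71. Fcer1g, the shared signalling chain of Fc receptors, had -3.22 and 0.98, a difference of -4.20. The differences were not tested, since each library had no replicate. When other cells with Siglech or Jchain were left out, the IkB-deficient value of Ctsh became 1.09 and that of Fcer1g -1.30.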

How the results depend on the processing

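The share of IkB-deficient cells that met the rule was 21.2% with 1 UMI required, 5.14% with 3, 1.79% with 5 and 4.21% after thinning, against 9.86%. A heavy chain was present in 36.3% of the members with 5 UMIs, against 27.5%, and the light chain share stayed within its interval. Against 84 genes higher and 85 lower, there were 28 and 28 at a mean CPM of at least 100, 139 lower with no minimum, 38 and 10 after weighting by depth, 131 lower with 3 UMIs required, 127 and 183 with 5, and 183 lower (118 higher) without marked doublets. With other cells limited to those without Mki67 and Top2a, 37 were lower and 81 higher, of which 26 were among the 84. The share of calls that were higher was 68.6% there, 39.9% with 3 UMIs required and 39.2% without doublets. Members with against without a heavy chain gave 15 and 32 at the CPM minimum of 100, and 125 higher without doublets, against 69 and 100. Members against 12-week wild-type cells with both chains gave 86 and 102 at that minimum, against 289 and 234.

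Of 1452 values of 121 genes under 12 settings, 15 reversed and 475 moved beyond their counting interval. Leaving dividing cells out of the other cells alone reverses division genes by construction: Pimreg 1.81, Fbxo5 2.64, Sapcd2 1.46, Prc1 1.15, H2afx 2.11, Rrm2 2.59, Pbk 2.98, Esco2 2.25, Top2a 5.25, Ube2c 2.34, Birc5 2.40, Ccna2 3.46, Dut 0.86, the G2 and M list 2.37 and the S list 0.75. Leaving Siglech or Jchain cells out of the others gave Cox6a2 0.17, Ctsh 1.09 and the plasmacytoid list 0.13, and removing doublets gave that list 0.0203.

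No paired analysis was possible because each group had 1 library. The Fcer2a-positive 12-week wild-type members were 11 cells, so their values have wide intervals.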

Other observations

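Apoe, a lipid carrier, had the highest ratio in the 100-week wild-type members, at 207 CPM against 4.27 in the other Cd79a-positive cells (48.4-fold), while the 17 cells of the largest clone held 2 UMIs of it (19.4 CPM). Markers of monocytes and macrophages, which also carry Apoe, summed to 17.8 CPM in the 100-week members and 43.1 in the other cells, and their part in the Apoe value was not tested. Mt1, a metallothionein, led the genes higher in IkB-deficient members with a heavy chain, at 49.8 against 1.77 CPM, from 84 and 7 UMIs.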
